A study of Mus musculus with 6 samples.

Results

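Cytokine and growth factor receptors were followed in LSK cells, the lineage-negative, Sca-1 and Kit positive fraction of mouse bone marrow that holds the hematopoietic stem cells and the earliest progenitors. The set was drawn up by name from the known receptor families and holds 36 genes. On the arrays 31 of them had a named probe set, 1 probe set each, among 30738 named genes and 65956 probe sets. The other 5, Il2rg, Csf2rb, Csf2rb2, Il11ra1 and Prlr, were not analysed here. All 6 mice were adult and carried the floxed exon 4 of Ash2l on both alleles, and all received 3 injections on alternating days, of poly(dIdC) by the sample labels and of poly(I:C) by the methods, with the marrow taken on day 10. The 3 KO mice also carried MxCre, and the 3 control mice were labelled with the floxed allele alone. MxCre is switched on by interferon, so the injections cause the deletion, and it acts in other tissues as well as in blood cells. With no Cre in the control label, Cre itself and the deletion cannot be told apart. The RNA of each mouse, 40 ng in all, was amplified and read on 1 transcriptome array.

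Cytokine receptors carry no enzyme of their own and signal through JAK kinases and STAT transcription factors bound to their inner tails. Many are built of a chain that recognises 1 ligand and a chain shared with other receptors, as gp130 is by the interleukin 6 family. TGF-beta receptors are kinases that phosphorylate SMAD proteins, TNF receptors act largely through NF-kB, and in blood stem cells such receptors convey signals for quiescence, lineage choice and emergency blood formation.

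The deposited values were normalised log2 probe set signals, in which a difference of 1 is a factor of 2. Array medians ran from 6.02 to 6.09. Ash2l was at 9.65, 9.63 and 9.65 in the KO arrays and at 10.76, 10.57 and 10.23 in the controls, a log2 difference of -0.88 (SE 0.15, limma, adjusted p = 0.198, n = 3 a group), read by a probe set that spans more than the deleted exon. Control replicate 3 stood apart. Over all probe sets it correlated at 0.984 and 0.980 with the other controls and at 0.986 to 0.989 with the KO arrays, against 0.989 between control replicates 1 and 2. Kit, a marker of the sort, and the progenitor marker Cd34 were high in every array, at 11.93 to 12.92 and at 13.99 to 15.38. Results that turn on control replicate 3 are given with and without it.

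After adjustment 0 of the 31 receptors (0.00% of named genes) had a limma p under 0.05, and 0.0528 was the lowest adjusted value over all 65956 probe sets. Before adjustment 3 of the 31 receptors were lower in KO LSK cells at a limma p under 0.05, against 6.83% of all named genes, and 4 were higher, against 4.58%. The lower ones were Il3ra, Il6st and Il10rb, and the higher ones were Flt1, Il12rb2, Il10ra and Il21r. Together these were 22.6% of the receptors, against 11.4% of named genes. Receptors are well expressed, however, and among named genes above the median signal 16.7% passed, against 28% of the 25 receptors above it. In 4 receptors every KO array was below every control (11.0% of named genes) and in 7 every KO array was above every control (5.82% of named genes), and all 7 receptors past the unadjusted threshold were among these 11. The median log2 difference of the 31 receptors was 0.05, with 13 below 0 and 18 above. Over all named genes the median was -0.03, with 56.9% below 0 and 42.3% above. Absolute differences were under 0.3 in 17 receptors, and over 2-fold in 2, Flt1 and Il6st.

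**Figure D1:**
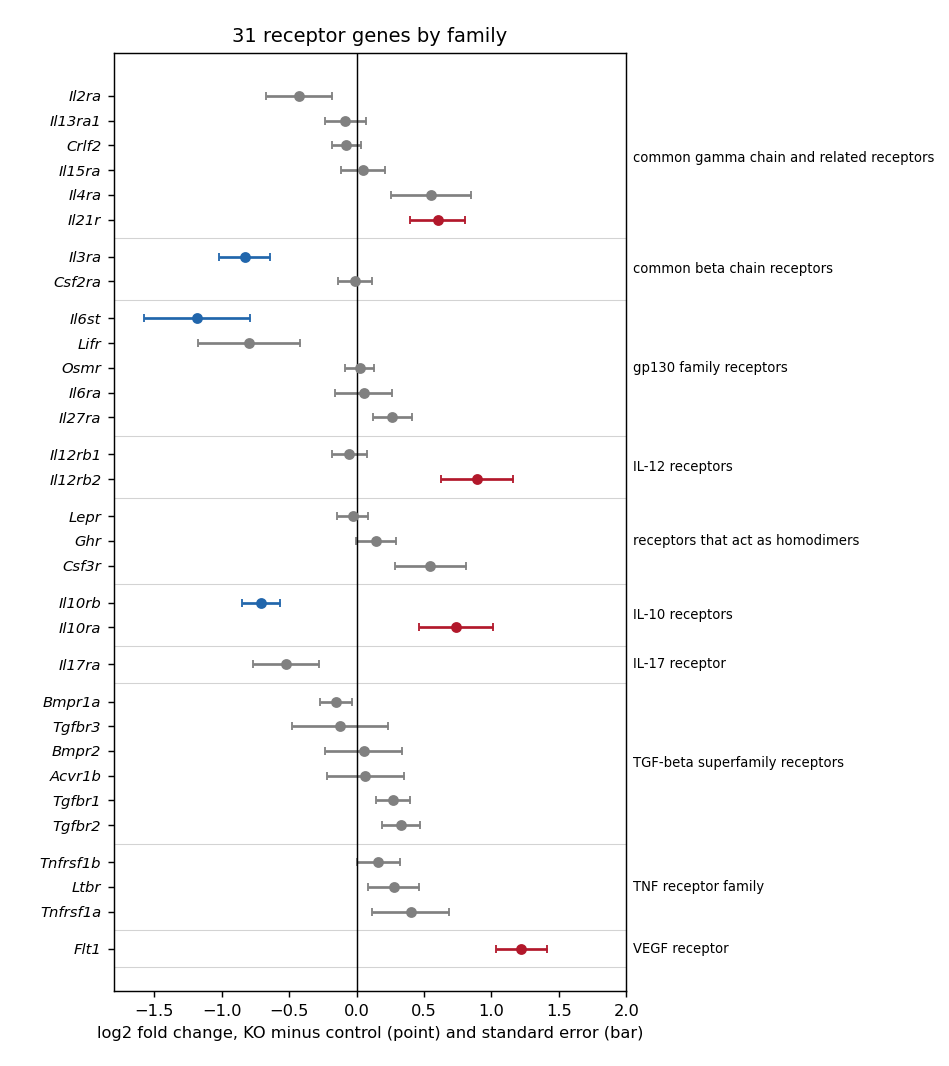
Log2 difference between KO and control (x axis) for the 31 receptors, grouped by family, with bars for the standard error from limma. Red points were higher and blue points lower at an unadjusted p under 0.05, grey points did not reach it, and Flt1 at 1.22 and Il6st at -1.19 mark the ends.

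The promoters of the receptors past the unadjusted threshold are shown because ASH2L is a core subunit of the complexes that methylate lysine 4 of histone H3, a mark found at promoters rich in CpG. RefSeq promoters (GRCm38.p6, 250 bases before the start and 50 after it) were matched by symbol for 25 of the 31 receptors and for 5 of these 7. They are written from 5′ to 3′ on the gene's strand, with each CpG in capitals.
Flt1 (chr5:147725962-147726261, minus strand): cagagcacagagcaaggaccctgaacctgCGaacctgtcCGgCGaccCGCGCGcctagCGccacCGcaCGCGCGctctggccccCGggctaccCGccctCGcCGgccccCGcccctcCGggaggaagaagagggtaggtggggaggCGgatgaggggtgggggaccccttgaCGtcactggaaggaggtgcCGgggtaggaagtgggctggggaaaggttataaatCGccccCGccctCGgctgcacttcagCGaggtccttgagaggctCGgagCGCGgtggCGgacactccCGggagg
Il12rb2 (chr6:67376139-67376438, minus strand): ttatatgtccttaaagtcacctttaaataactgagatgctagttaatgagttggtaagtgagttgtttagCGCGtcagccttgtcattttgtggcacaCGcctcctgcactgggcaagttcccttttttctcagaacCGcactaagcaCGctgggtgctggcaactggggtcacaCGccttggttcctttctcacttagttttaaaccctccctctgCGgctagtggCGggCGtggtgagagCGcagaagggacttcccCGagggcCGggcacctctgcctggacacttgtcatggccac
Il21r (chr7:125603179-125603478, plus strand): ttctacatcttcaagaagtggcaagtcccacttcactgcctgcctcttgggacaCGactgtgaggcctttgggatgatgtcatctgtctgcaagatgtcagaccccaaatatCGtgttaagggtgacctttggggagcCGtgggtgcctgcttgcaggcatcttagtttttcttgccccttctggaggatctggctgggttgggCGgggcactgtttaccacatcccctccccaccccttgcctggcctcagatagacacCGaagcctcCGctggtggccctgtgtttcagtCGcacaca
Il3ra (chr14:14346245-14346544, plus strand): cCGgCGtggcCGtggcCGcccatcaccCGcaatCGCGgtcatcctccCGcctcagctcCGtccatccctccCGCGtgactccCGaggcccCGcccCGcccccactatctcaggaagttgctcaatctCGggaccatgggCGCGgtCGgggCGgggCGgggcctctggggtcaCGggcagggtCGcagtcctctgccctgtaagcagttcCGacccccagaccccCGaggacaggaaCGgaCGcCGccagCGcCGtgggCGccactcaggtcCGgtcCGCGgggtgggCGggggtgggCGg
Il6st (chr13:112463820-112464119, plus strand): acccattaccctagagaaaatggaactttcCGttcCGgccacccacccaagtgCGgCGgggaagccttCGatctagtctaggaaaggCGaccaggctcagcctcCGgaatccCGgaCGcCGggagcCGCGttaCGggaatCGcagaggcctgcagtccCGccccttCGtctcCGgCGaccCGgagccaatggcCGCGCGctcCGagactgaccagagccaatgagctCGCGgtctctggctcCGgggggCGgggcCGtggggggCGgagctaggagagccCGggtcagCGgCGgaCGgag
These windows held 29 CpG in Flt1, 12 in Il12rb2, 7 in Il21r, 35 in Il3ra and 33 in Il6st. Both lower receptors shown were at the CpG-rich end, whereas the 3 higher ones ranged from few to many. Il10ra and Il10rb had no promoter here. Other receptors rich in CpG went different ways. Acvr1b with 51 differed by 0.06 and Bmpr1a with 48 by -0.15. Lifr with 53 and Tgfbr1 with 34, each in its richer promoter, differed by -0.80 and 0.27. A link between CpG and the differences was not tested. Over all 30 receptor promoters the median was 22.5 CpG (3 to 53), against 13 for the 21263 promoters of coding genes in the table. The STAT element TTCNNNGAA, which reads the same on both strands, was present in 3 receptor promoters (Il12rb2, Tnfrsf1a and Tnfrsf1b) and in 8.3% of all 32851. These are matches of letters and not measured binding.

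Flt1 encodes VEGF receptor 1, a tyrosine kinase that binds VEGF-A, VEGF-B and placental growth factor. It had the largest difference of the set. Its log2 signals were 7.72, 7.59 and 7.26 in the KO arrays and 6.15, 6.13 and 6.63 in the controls. Every KO array lay well above every control, control replicate 3 being the closest. The means of 7.52 ± 0.24 and 6.30 ± 0.28 (SD, n = 3 each) differed by 1.22 (SE 0.19), a 2.33-fold higher level in KO (limma, unadjusted p = 0.000389, adjusted p = 0.180). With each array left out in turn the difference stayed between 1.12 and 1.38. Without control replicate 3 its adjusted p from limma was 0.0144, and with any other array left out it was 0.212 to 0.570. Flt1 is also known from endothelial cells, and the other endothelial markers were therefore read beside it: after each gene was centred on its own mean of the 6 arrays, the median of the 8 measured was 0.05 to 0.15 in KO and -0.39, -0.61 and 0.61 in control replicates 1 to 3. Of the 8, Esam, Tek, Kdr, Tie1 and Plvap had higher means in KO (0.75, 0.71, 0.45, 0.32 and 0.27) and Emcn, Cdh5 and Pecam1 lower ones (-0.56, -0.14 and -0.02), with 0 past an unadjusted p of 0.05 (limma) in either direction. Esam, Tek, Kdr and Tie1 overlapped between groups, each being highest in control replicate 3 apart from Kdr, whereas Plvap was higher in every KO array. Cdh5, the adhesion molecule that defines endothelial cells, was lower in every KO array than in every control, but dim at 4.85 to 5.06. Pecam1, which blood cells also carry, was at 9.89 to 10.75. The part of endothelial cells in the level of Flt1 was not tested, nor was that of monocytes and macrophages, whose markers are given below. Of the ligands of Flt1, Vegfa was lower in KO, with 6.84, 6.68 and 6.92 against 8.77, 8.03 and 7.12 in the controls. The groups did not overlap, and the difference was -1.16 (SE 0.38, limma, adjusted p = 0.362). Vegfb and Pgf differed by -0.07 and -0.10.

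**Figure D2:**
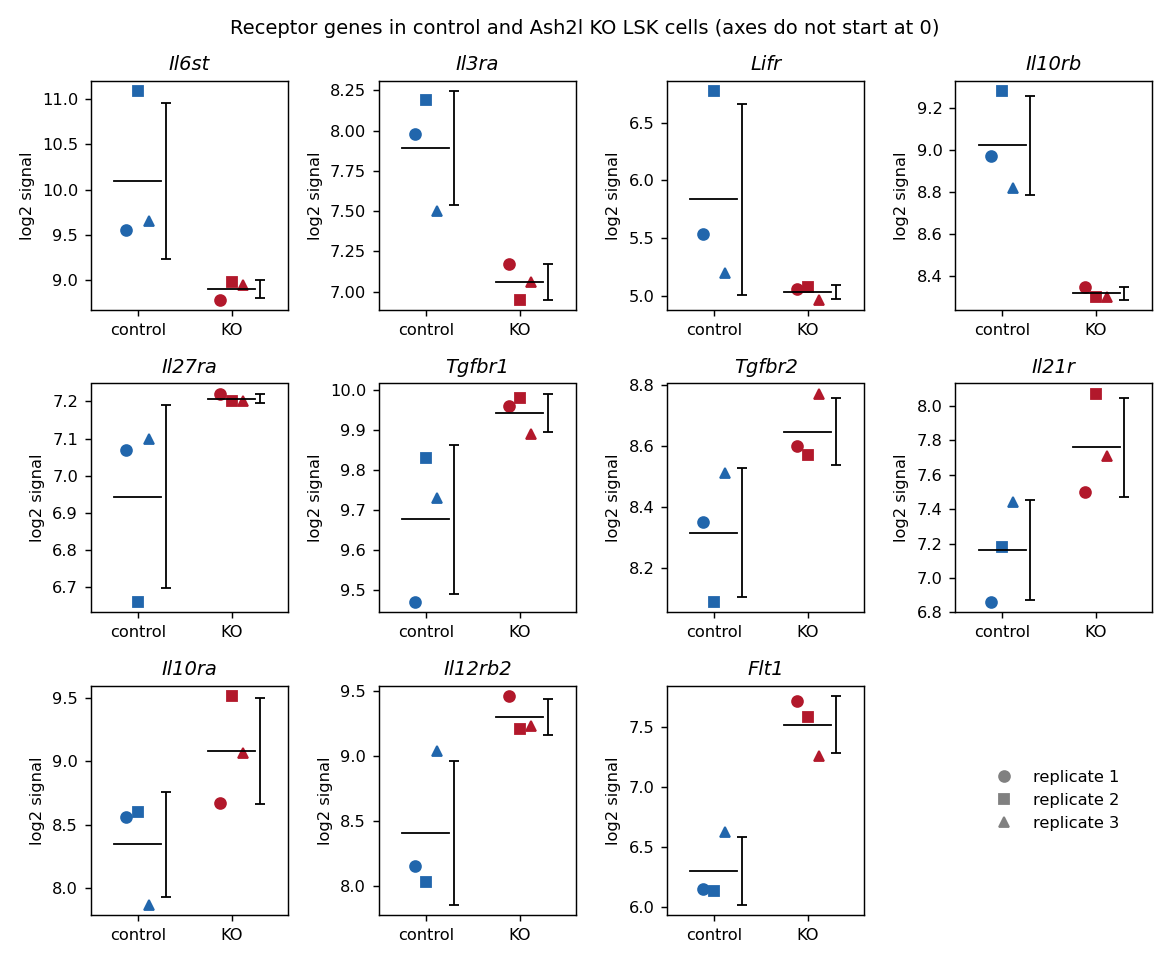
Log2 signal (y axis, not starting at 0) of the 11 receptors whose KO and control arrays did not overlap. Blue points are controls and red points KO, circle, square and triangle are replicates 1, 2 and 3, and the line and bar give the mean and SD; the 3 KO points of Flt1, 7.26 to 7.72, all sit above its controls.

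Among the receptors that use the common gamma chain or belong near it, only Il21r, whose ligand interleukin 21 comes from activated T cells, passed the unadjusted threshold. Its signals were 7.50, 8.07 and 7.71 in KO and 6.86, 7.18 and 7.44 in the controls. The groups lay close together without overlap, and the difference was 0.60 (SE 0.20, limma, unadjusted p = 0.0226, adjusted p = 0.372). Without KO replicate 2 or control replicate 1 the unadjusted p from limma rose to 0.0734 and 0.0715. Il4ra, the chain shared by the interleukin 4 and interleukin 13 receptors, is the direct neighbour of Il21r on chromosome 7 (RefSeq, GRCm38.p6). It was at 10.60, 11.08 and 10.18 in KO and 9.56, 10.24 and 10.40 in the controls, which overlapped (difference 0.55, SE 0.30). Il2ra, the high-affinity chain for interleukin 2, was at 5.73, 6.27 and 5.66 in KO and 5.96, 6.73 and 6.25 in the controls, again overlapping (difference -0.43, SE 0.25). Its neighbour on chromosome 2, Il15ra, which presents interleukin 15, differed by 0.05. Il13ra1 and Crlf2, the chains for interleukin 13 and thymic stromal lymphopoietin, both differed by -0.08.

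Il3ra, the specific chain of the interleukin 3 receptor on early progenitors, was lower in KO. Its signals were 7.17, 6.95 and 7.06 in KO and 7.98, 8.19 and 7.50 in the controls. The KO arrays were tightly grouped and lay below all controls. The means of 7.06 ± 0.11 and 7.89 ± 0.35 (SD, n = 3 each) differed by -0.83 (SE 0.19), a level 1.78-fold lower (limma, unadjusted p = 0.00344, adjusted p = 0.261). With each array left out in turn the difference was between -1.03 and -0.68. The adjusted p of Il3ra from limma was 0.0189 without control replicate 3 and 0.304 to 0.600 without any other array. Csf2ra, the matching chain for GM-CSF, which pairs with the same beta chain, showed nothing comparable, with 6.69, 6.51 and 6.63 in KO and 6.49, 6.81 and 6.56 in the controls (difference -0.01, SE 0.13).

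In the gp130 family the shared chain was lower and the ligand-specific chains were mixed. Il6st, which encodes gp130, was at 8.79, 8.98 and 8.95 in KO and at 9.55, 11.08 and 9.65 in the controls. All controls were above all KO arrays, and control replicate 2 was far above the other controls. The difference was -1.19 (SE 0.39), a level 2.28-fold lower (limma, unadjusted p = 0.02, adjusted p = 0.363). Leaving out control replicate 2 left a difference of -0.69, at an unadjusted p of 0.00173 from limma, and leaving out KO replicate 1 gave 0.0598. Lifr, the partner of gp130 for leukemia inhibitory factor, had the same outlying array, with 5.06, 5.08 and 4.97 in KO against 5.54, 6.77 and 5.20 in the controls. The groups did not overlap, but the difference of -0.80 (SE 0.38) did not pass the unadjusted threshold, and it was -0.33 without control replicate 2. Lifr was among the dim receptors, its mean lying below the median signal of 6.07. The median of the 9 dendritic cell markers was also highest in control replicate 2. It was 0.15, 0.50 and -0.01 in control replicates 1 to 3 and -0.35 to -0.14 in KO. Not every marker followed it, as Flt3 was lowest there among the controls, and Bst2 and Cd209a were highest in KO arrays. At an unadjusted p under 0.05 (limma) 5 of the 9 were lower in KO (6.83% of named genes) and 0 higher (4.58%). The part of these markers in the values of Il6st and Lifr was not tested. Osmr, the oncostatin M chain and the neighbour of Lifr on chromosome 15, stayed near the bottom of the signal range in all arrays, at 4.79 to 4.98. Il6ra, the interleukin 6 chain, was at 7.33, 7.12 and 7.23 in KO and 6.78, 7.60 and 7.14 in the controls, whose range enclosed the KO arrays (difference 0.05, SE 0.21). Il27ra, the interleukin 27 chain, was at 7.22, 7.20 and 7.20 in KO and 7.07, 6.66 and 7.10 in the controls. Its KO arrays sat just above the controls, by 0.26 on average (SE 0.15).

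Il12rb2, the signalling chain of the interleukin 12 receptor, was at 9.46, 9.21 and 9.23 in KO and at 8.15, 8.03 and 9.04 in the controls. Control replicate 3 came close to the KO arrays, while the other controls were far below them. The difference was 0.89 (SE 0.27), a level 1.86-fold higher (limma, unadjusted p = 0.0132, adjusted p = 0.335). Leaving out control replicate 3 raised it to 1.21, at an adjusted p of 0.0120 from limma. With any other array left out the adjusted p was 0.446 to 0.671. Il12rb1, the chain shared with the interleukin 23 receptor, was in the lower part of the signal range in all arrays, at 5.65 to 6.02 (difference -0.05). Il12a, which encodes the p35 subunit of interleukin 12, was lower in KO, with 10.57, 10.44 and 10.96 against 11.74, 11.71 and 11.40 (difference -0.96, SE 0.17, limma, adjusted p = 0.208), and these groups did not overlap.

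The interleukin 10 receptor chains went in opposite directions. Il10ra, the chain that binds interleukin 10, was at 8.67, 9.51 and 9.06 in KO and 8.56, 8.60 and 7.87 in the controls. KO replicate 1 cleared the highest control by little. The difference was 0.74 (SE 0.28, limma, unadjusted p = 0.0331, adjusted p = 0.414), and without KO replicate 2, KO replicate 3 or control replicate 3 the unadjusted p from limma was 0.107, 0.0723 and 0.0857. Il10rb, which the receptor shares with those for interleukin 22 and type III interferons, was at 8.35, 8.30 and 8.30 in KO and 8.97, 9.28 and 8.82 in the controls. The KO arrays were nearly equal and lay below all controls. The difference was -0.71 (SE 0.14), a level 1.63-fold lower (limma, unadjusted p = 0.00169, adjusted p = 0.231). The adjusted p from limma was 0.0371 without control replicate 3 and 0.232 to 0.596 without any other array. Within each array, Il10ra minus Il10rb was 0.32, 1.21 and 0.76 in KO and -0.41, -0.68 and -0.95 in the controls. As these are signals of different probe sets, only the change of the difference between groups is read. It came to 1.44, without overlap, as had to follow from the opposite separation of the chains.

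That was 1 of 9 pairs of chains from the same receptor compared in this way. The others without overlap were Il12rb2 minus Il12rb1 (0.95) and Il6ra, Lifr, Osmr and Il27ra each minus Il6st (1.24, 0.39, 1.21 and 1.45), the last 4 sharing 1 chain. For these 6 pairs the exact two-sided permutation p was 0.1, the smallest that 3 against 3 arrays allow, and 0.15 after adjustment over the 9 pairs. In the pairs Il10ra with Il10rb and Il27ra with Il6st, 1 chain lay wholly above and the other wholly below the controls. Their separation and p were thus fixed by the single genes and are no separate support. Il12rb1, Lifr and Osmr were dim. The pairs Il4ra with Il13ra1, Tgfbr1 with Tgfbr2 and Bmpr1a with Bmpr2 overlapped, with changes of 0.64, -0.06 and -0.21.

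Il17ra, the widely expressed chain for interleukin 17, had the highest mean of the set. It was at 10.87, 10.84 and 11.14 in KO and at 11.79, 11.71 and 10.92 in the controls. Control replicates 1 and 2 were high and control replicate 3 fell among the KO arrays, so the groups overlapped (difference -0.52, SE 0.24, limma, adjusted p = 0.505). Without control replicate 3 the difference was -0.80, with an adjusted p of 0.0407 from limma. With any other array left out the adjusted p was 0.659 to 0.832. The median of the B cell markers divided the controls likewise. For the 8 measured of 10 it was 2.46 and 2.22 in control replicates 1 and 2, -1.85 in control replicate 3 and -1.59 to -0.64 in KO. Not every marker followed it. Dntt was at 14.14 in control replicate 3, far above its KO arrays, and Ms4a1 was highest in KO replicate 2, at 8.13. The part of these markers in the values of Il17ra, Il3ra and Il10rb was not tested.

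Of the receptors that act as homodimers, Csf3r, the G-CSF receptor of the granulocyte lineage, was at 11.24, 10.83 and 10.79 in KO and at 9.92, 10.38 and 10.92 in the controls. The groups overlapped through control replicate 3 (difference 0.55, SE 0.27). Lepr and Ghr, for leptin and growth hormone, were among the dim members, at 4.95 to 5.18 and 5.42 to 5.84, and differed by -0.03 and 0.14.

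TGF-beta receptors kept close to their control levels or lay slightly above them. Tgfbr1, the signalling kinase, was at 9.96, 9.98 and 9.89 in KO and 9.47, 9.83 and 9.73 in the controls. Tgfbr2, which binds the ligand and activates it, was at 8.60, 8.57 and 8.77 in KO and 8.35, 8.09 and 8.51 in the controls. In both the KO arrays lay above all controls by a small margin, and the differences of 0.27 (SE 0.13) and 0.33 (SE 0.14) did not pass the unadjusted threshold. Their ligand gene Tgfb1 was lower, with 10.87, 10.95 and 11.08 in KO against 11.74, 11.75 and 11.53 (difference -0.71, SE 0.12, limma, adjusted p = 0.195), without overlap. Tgfbr3, the co-receptor betaglycan, was at 8.24, 8.24 and 8.46 in KO and 7.71, 8.37 and 9.23 in the controls. Acvr1b, an activin receptor kinase, and Bmpr2, the type II BMP receptor, shared with Tgfbr3 a wide control range that enclosed the KO arrays, from 8.11 to 9.23 and from 9.54 to 10.68, with control replicate 3 highest in all of them. Their differences of -0.12, 0.06 and 0.05 changed sign when single arrays were left out. Bmpr1a was dim throughout, at 4.83 to 5.15.

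The TNF receptors overlapped between groups. Tnfrsf1a, the death domain receptor, was at 8.18, 8.18 and 8.03 in KO and 7.04, 8.0 and 8.15 in the controls, where replicate 1 alone was low (difference 0.40, SE 0.29). Ltbr, the lymphotoxin beta receptor, is separated from it on chromosome 6 by 1 coding gene. Its values of 8.41, 8.39 and 8.23 in KO and 7.75, 8.0 and 8.45 in the controls also overlapped (difference 0.28, SE 0.19). Tnfrsf1b, the second TNF receptor, differed by 0.16 (SE 0.16).

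**Figure D3:**
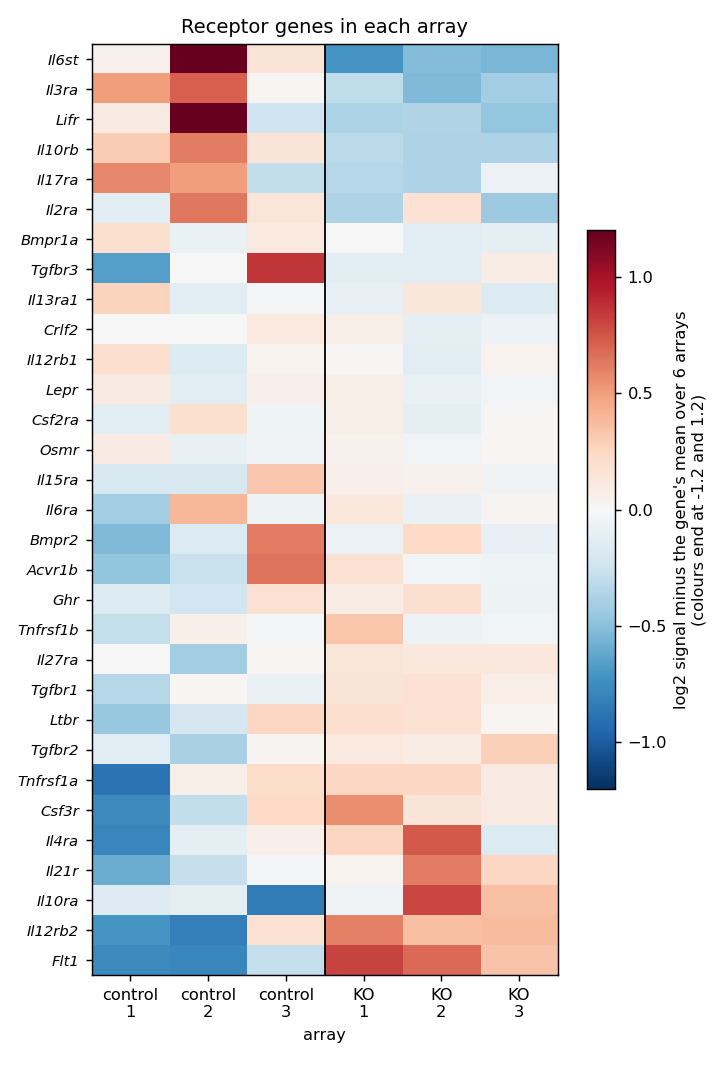
Log2 signal of the 31 receptors (rows) in the 6 arrays (columns), minus each gene's mean over the arrays, with colours ending at 1.2 above and below it. The columns of the KO replicates resemble each other, and control replicate 3 differs from control replicates 1 and 2 in rows such as Il17ra and Il12rb2.

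The spread of the receptors was uneven between groups. The median SD over 3 arrays was 0.108 in KO and 0.300 in the controls (0.130 and 0.172 over all named genes), and the control SD was the larger in 27 of 31 receptors, 87.1%, against 61.8% of named genes. The control array nearest to the KO mean was control replicate 3 for 20 receptors, 64.5%, against 41.4% of named genes. Without that array, 5 receptors passed an adjusted p of 0.05 (limma), namely Flt1, Il12rb2, Il3ra, Il10rb and Il17ra, against 4.43% of named genes. At an unadjusted p under 0.05 there were then 5 lower (8.42% of named genes) and 7 higher (11.0%). With any other single array left out, 0 receptors passed an adjusted p of 0.05. As control replicate 3 lay nearest to KO for most receptors, the counts without it are no separate support. Flt1, Il12rb2, Il3ra and Il10rb were also the 4 that kept an unadjusted p under 0.05 whichever single array was left out.

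**Figure D4:**
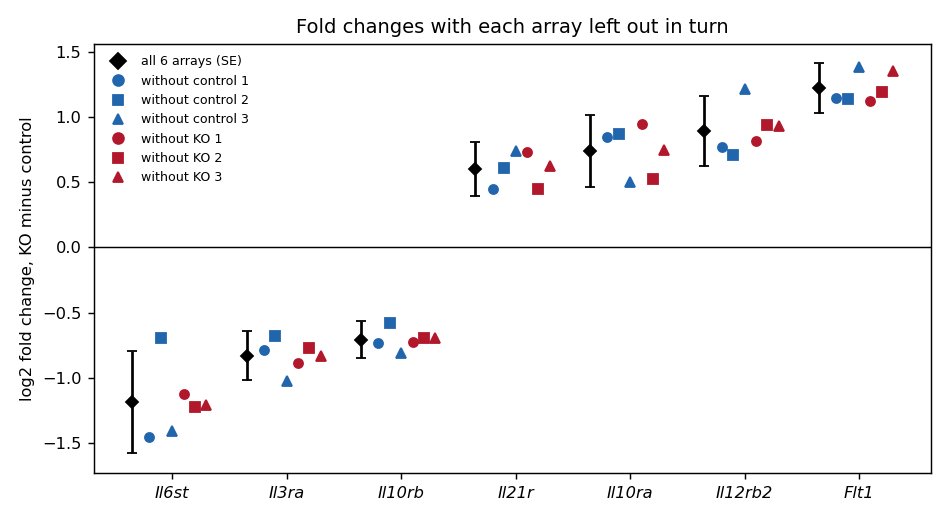
Log2 difference (axis in log2 units) of the 7 receptors past the unadjusted threshold, with all arrays and with each array left out in turn. All 7 kept their direction, and the range of Il6st, -1.46 to -0.69, was the widest.

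The genes around the receptors were read from lists of ligands, other receptors and signalling parts, with 0 genes past an adjusted p of 0.05 in each (limma). Over all named genes 6.83% were lower and 4.58% higher at an unadjusted p under 0.05. Without control replicate 3 these shares were 8.42% and 11.0%, and 4.43% passed an adjusted p of 0.05. The lists are small, and their counts are given beside these shares without a test of any list. Of 45 measured ligand genes, 5 were lower and 1 was higher at an unadjusted p under 0.05. The lower ones were Tgfb1, Il12a and Vegfa, the dim Lep at -0.32, and Clcf1, a gp130 family ligand named outside the rule, at -0.38. Without control replicate 3 the counts were 4 lower and 5 higher. Il15, whose product is presented by Il15ra and which was picked out after its values were seen, was at 10.50, 10.80 and 10.58 in KO and 9.12, 8.83 and 10.61 in the controls, that array again lying with the KO group. Of 33 other receptor genes 3 were lower and 0 higher, with Flt3, the receptor tyrosine kinase of multipotent progenitors, at -1.22 (SE 0.26), the activin receptor Acvr2b at -0.35 and the TGF-beta co-receptor Eng at -0.44. Among 9 JAK and STAT genes 2 were lower and 3 higher, with Stat5a at -0.33, Stat5b at -0.30 and Stat2, Tyk2 and Stat6 at 0.57, 0.38 and 0.37. The median of these 9 was 0.37, against -0.03 over all named genes. Of 20 feedback and response genes 1 was lower and 3 higher, Pim2, a survival kinase induced by STAT5, being at 0.63, Pias3, an inhibitor of STAT3, at 0.50, Bcl3 at 0.44 and Socs7 at -0.35. Of 21 genes of the SMAD branch 3 were lower, Ltbp3, which binds latent TGF-beta, at -0.49, the nuclear inhibitor Skil at -0.50 and the target Id3 at -0.75, and 2 were higher, Smad3 at 0.47 and the target Id2 at 1.84. The Id genes thus went different ways. Id2 had the largest difference of this list and is named outside the rule, with 12.26, 13.42 and 12.48 in KO against 9.76, 10.48 and 12.40 in the controls, overlapping through control replicate 3. Id1 differed by 0.71, without passing the unadjusted threshold. In the TNF and NF-kB list of 20, Tnfaip3, which ends NF-kB signalling, was lower at -0.83 (SE 0.15, limma, adjusted p = 0.200), and Rel and Ripk1 were higher at 0.48 and 0.39. These counts also depended on control replicate 3. Without it, the other receptors had 5 lower and 5 higher, the JAK and STAT genes 1 and 5, the feedback genes 0 and 5, the SMAD branch 3 and 4, and the TNF list 3 and 4, and in the order of the lists from the ligands on, 4, 2, 2, 1, 3 and 1 genes passed an adjusted p of 0.05.

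Markers of other states moved between the arrays beside the receptors. Interferon response genes had a median of 0.39 to 0.64 in KO and of -1.02, -1.24 and 0.48 in control replicates 1 to 3. At an unadjusted p under 0.05 (limma) 11 of 18 were higher in KO, against 4.58% of named genes, and 0 were lower. The 8 mast cell and basophil markers were at 0.60 to 0.69 in KO and at -2.18, -0.22 and 0.38 in the controls, and the 7 measured of 9 megakaryocyte markers at 0.27 to 0.91 against -0.93, -0.88 and 0.64. For the 13 T and NK cell markers the median was -0.73, 1.39 and 0.375 in KO replicates 1 to 3. In control replicates 1 to 3 it was -0.74, -0.15 and -0.62. Il10ra and Il21r had the same order as these markers among the KO arrays but not among the controls. The part of the T and NK cell markers in their values was not tested. The 14 granulocyte markers ranged from -0.21 to 0.77 in KO and from -1.07 to 0.18 in the controls. The 10 measured of 11 monocyte and macrophage markers were at 0.53, 0.23 and -0.05 in KO replicates 1 to 3. In control replicates 1 to 3 they were at -0.36, 0.01 and -0.37. Of these 10, Lyz2, Cd68, Fcgr1 and Vcam1 were higher at an unadjusted p under 0.05 (limma, 4.58% of named genes). None was lower (6.83%). At that threshold 3 of 14 granulocyte and 3 of 7 megakaryocyte markers were also higher. So were 2 of 8 mast cell and basophil and 2 of 13 T and NK cell markers, and 0 in these lists were lower. The LSK markers had 1 lower and 1 higher. The 9 measured of 11 LSK markers were at -0.29 to 0.06 in KO and at -0.21, -0.75 and 0.69 in the controls. Stromal markers, 8 measured, stayed between -0.10 and 0.11 in all arrays. The part of these markers in the receptor differences was not tested. In sorted bulk RNA, fewer cells of a type and less RNA per cell cannot be told apart.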

How the data were processed

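RNA of sorted LSK cells from 3 KO and 3 control mice was hybridised to 1 mouse transcriptome array each. The deposited values are log2 signals per probe set, which the authors made by RMA after signal space transformation (SST-RMA). The submitters' processing notes name Affymetrix Expression Console. Such summaries hold no detection call, so a dim gene cannot be told from an absent one. The number of arrays and the distance of control replicate 3 from the other controls limit precision.

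Probe sets were named from the platform annotation, with 30638 of 65956 carrying 1 symbol, 1522 several genes and 33142 none, and 330 names updated through RefSeq. For 439 genes with several probe sets, the one with the highest mean was used. All probe sets were fitted together with limma 3.58.1 in R 4.3.3 (lmFit and eBayes, KO minus control, equal weights, no block), and p-values were adjusted by Benjamini-Hochberg over all of them. Since no adjusted p passed 0.05, calls are read at an unadjusted p under 0.05. Pairs of chains were compared by exact permutation tests, 2-sided. The fit was tested on simulated data. Receptors and lists were chosen with earlier results of these data known. Receptors past the unadjusted threshold or without overlap are given in full, and from each pathway list up to 4 genes of smallest p under 0.05. Il15, Clcf1, Stat5b, Id1 and Id2 were named after their values were seen.

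Replicate numbers do not mark shared animals. The sample descriptions also carry a number of unstated meaning, which KO replicate 1 shares with control replicate 1, and KO replicate 3 with control replicate 2. The methods name limma for the arrays and an unpaired t-test as the general test for other measurements. Alternatives were quantile normalisation, median centring, trend and robust priors, array weights, a filter on dim probe sets, the mean of probe sets, an unpaired t-test, blocks by number and leaving out each array. The pathway lists without control replicate 3 and the marker levels per array were added after seeing the data.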

Additional observations from a re-analysis of the deposited data

How the results depend on the processing

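The count of lower receptors, 3, was 5 with array weights and 5 with a block by the number in the sample descriptions, and 2 to 5 with single arrays left out. The count of higher receptors, 4, was 1 by the unpaired t-test and 2 to 7 with single arrays left out, 7 without control replicate 3 and 2 without KO replicate 2. The count past an adjusted p of 0.05, 0 of 31, was also 0 by the unpaired t-test and ranged from 0 to 5 with single arrays left out, and the 5 came without control replicate 3. The median of the receptors, 0.053, ranged from -0.017 to 0.220. With the replicate number as a block, 4 were lower, 5 higher and 0 past an adjusted p, with a median of 0.053. Same-numbered arrays had deviations correlating at 0.156, -0.171 and -0.169. With 3 arrays a group, such correlations cannot decide whether same-numbered samples were handled together. The pairs that share a description number correlated at 0.156 and 0.162, and KO replicate 2 with control replicate 3, which share none, at 0.281. Receptors near 0 changed sign: Lepr to 0.015 with quantile normalisation, Csf2ra to 0.021 and Tgfbr3 to 0.106 with array weights, and Csf2ra to 0.010, Il12rb1 to 0.010, Lepr to 0.030 and Tgfbr3 to 0.310 with the block by description number. With single arrays left out, ranges crossed 0 for 10 receptors: Il13ra1 -0.173 to 0.03, Il15ra -0.04 to 0.22, Csf2ra -0.075 to 0.085, Il6ra -0.143 to 0.267, Osmr -0.017 to 0.078, Il12rb1 -0.15 to 0.035, Lepr -0.097 to 0.018, Tgfbr3 -0.487 to 0.273, Acvr1b -0.157 to 0.403 and Bmpr2 -0.197 to 0.373. The cause was not tested. The 6 receptors below the median signal of 6.07 are the least certain.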
